A study of Mus musculus with 13 samples.

Results

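Vertebrate muscle builds its first sarcomeres, the contractile units of striated muscle, from isoforms that adult fast muscle later replaces. These include the cardiac-type actin Actc1, the embryonic and perinatal myosin heavy chains Myh3 and Myh8, and light chains, troponins and an M-band protein of the embryo, the heart or slow fibres. Regenerating fibres switch several of them on again while satellite cells, the muscle's stem cells, fuse into new myotubes. Some keep an adult role as well: Tnni1 and Tnnc1 are the troponins of adult slow fibres, and Myom3 is found in part of the adult fibres. The 10 genes described here, Actc1, Myh3, Myh8, Myl4, Myl6b, Tnnt2, Tnni1, Tnnc1, Myom3 and Ankrd1, were chosen by name as embryonic, perinatal or cardiac-type genes of the sarcomere. All 10 were measured among 14911 genes.

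RNA was sequenced from whole injured hamstring muscle of female C57BL/6 mice on day 4 after cardiotoxin, a snake venom protein that kills muscle fibres and starts regeneration, had been injected into the muscle at 0.32 mg/kg. The dexamethasone group held 9 mice given 10 mg/kg of this synthetic glucocorticoid once daily into the abdomen, and the saline group held 4 mice given saline. Each library came from 1 mouse, and all 13 mice had been injured. Per the series' design text, bone had formed in the injured muscle of every dexamethasone mouse and of 1 saline mouse, which the submitters left out and which was not used here. The drug and the bone therefore cannot be told apart. Age was not given, and uninjured muscle was not analysed here.

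Libraries held 28021111 to 34942266 reads assigned to genes in the dexamethasone group and 25531487 to 32537345 in the saline group. The 10 genes had between 1889 and 151034 reads in every library, so counting error was small beside the spread between mice. Levels are given as log2 CPM, the log2 of read counts scaled to a common library size, on which a difference of 1 is a doubling. Of 6 skeletal muscle fibre markers, 0 passed limma at an adjusted p under 0.05, while 4 were lower at an unadjusted p under 0.05 and 4 by voom. Their summed level was 64530 to 95509 CPM in dexamethasone muscle and 94905 to 144331 CPM in saline muscle. Heart muscle cell markers summed to 6.04 to 8.70 CPM in dexamethasone muscle and 5.59 to 9.25 CPM in saline muscle. Of the 12 such markers listed, Nppa, Nppb, Myl7, Nkx2-5, Gata4 and Tbx20 were not among the genes listed in the table. In whole muscle, fewer cells of a type and less RNA per cell cannot be told apart.

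With dexamethasone, 7 of the 10 genes were lower and 1 was higher at an adjusted p under 0.05 (limma, two-sided, Benjamini-Hochberg over 14911 genes). Actc1, Myh8, Myl4, Myl6b, Tnni1, Myom3 and Myh3 were lower, Ankrd1 was higher, and Tnnt2 and Tnnc1 did not pass. Both counts were the same without dexamethasone library 4, and none of the 8 changed sign under median centring or quantile normalisation. Over all genes, 22.9% were lower and 25.2% were higher, so 48.1% passed in either direction. Among the 1427 genes at least as abundant on average as Myl6b, the least abundant of the 10, 31.8% were lower. Abundance here means mean log2 CPM, without a correction for gene length. Every dexamethasone library lay below every saline library for 6 of the 10 genes, against 12.9% of all genes, and above it for 1, against 12.9% of all genes; in either direction this makes 7 of the 10, against 25.8% of all genes. The median log2 fold change of the 10 was -0.50, beside 0.01 over all genes.

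**Figure D1:**
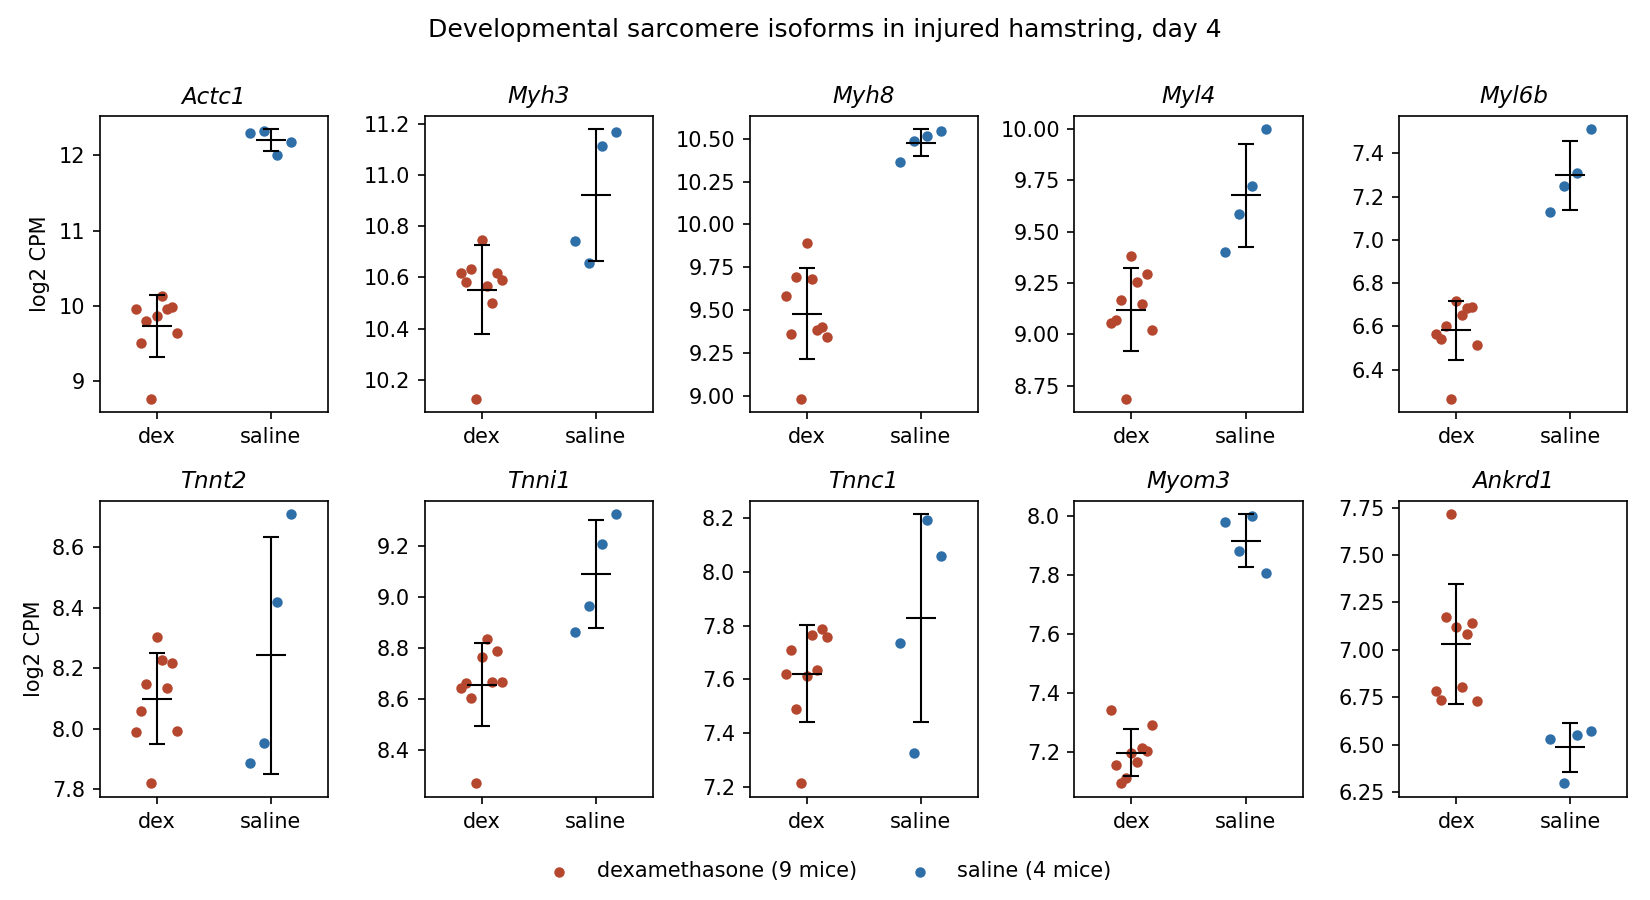
Levels of the 10 developmental sarcomere genes in each library (vertical axes, log2 CPM, with a scale of their own in each panel) in 9 dexamethasone and 4 saline mice. Points are libraries, bars are the group mean ± SD. The groups separate fully for Actc1, Myh8, Myl4, Myl6b, Tnni1, Myom3 and, in the other direction, Ankrd1, and overlap for Myh3, Tnnt2 and Tnnc1.

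Actc1 (chr2:114047282-114052875, minus strand, mm10) encodes cardiac alpha-actin, the sarcomeric actin of the heart and of forming skeletal muscle. In dexamethasone libraries its level ran from 8.77 through a median of 9.87 to 10.13 log2 CPM. In saline libraries it was 12.30, 12.32, 12.01 and 12.18 log2 CPM. All 9 dexamethasone values lay far below all 4 saline values, and dexamethasone library 4 was lowest. The level averaged 9.74 ± 0.41 log2 CPM with dexamethasone and 12.20 ± 0.14 log2 CPM with saline (SD, n = 9 and 4). Its log2 fold change was -2.46 ± 0.19 (SE), a 5.52-fold lower level (limma adjusted p = 1.68e-07). It was the most negative fold change of the 1427 genes at or above the abundance of Myl6b, and ranked 30 of all 14911. Without dexamethasone library 4 it was -2.34. A noncoding gene, A530058N18Rik, lies on the opposite strand across Actc1.

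The adult counterpart is Acta1, skeletal alpha-actin. Its level was 14.60 ± 0.17 log2 CPM with dexamethasone and 15.10 ± 0.21 log2 CPM with saline (SD, n = 9 and 4). The fitted log2 fold change was -0.50, with all dexamethasone libraries below all saline libraries, but it missed the threshold (limma adjusted p = 0.0672) and was 0.015 after quantile normalisation. It passed without saline library 5 (-0.56, limma adjusted p = 0.0484). Acta1 also passed without the intensity trend, with robust priors, with voom and with the filter on low genes. In the authors' deposited table its adjusted p was 0.00223. Within libraries, the ratio of Actc1 to Acta1 was 3.90-fold lower with dexamethasone (exact permutation p = 0.0028, two-sided, the smallest that the 715 splits allow; adjusted over 11 ratios, p = 0.0154). Per kilobase of exon, Actc1 made up 3.36 ± 0.75% of the sum of both sarcomeric actins in dexamethasone muscle and 11.7 ± 1.03% in saline muscle (SD, n = 9 and 4). Its share reached at most 4.30% in any dexamethasone library, against at least 10.4% in every saline library.

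The 250 bases upstream of the start are shown for Actc1 and Myh8, which fell most, and for Ankrd1, which rose. Sequences are from RefSeq (GRCm38.p6), 5′ to 3′ on the gene's strand. Capitals mark the match to the CArG box, the motif of serum response factor, in Actc1 (chr2:114052876-114053125, minus strand). They mark the MEF2 box, the motif of the MEF2 factors, in Myh8 (chr11:67276874-67277123, plus strand). In Ankrd1 (chr19:36119845-36120094, minus strand) they mark 2 MCAT motifs, the motif of TEAD factors, read on the opposite strand.
Actc1: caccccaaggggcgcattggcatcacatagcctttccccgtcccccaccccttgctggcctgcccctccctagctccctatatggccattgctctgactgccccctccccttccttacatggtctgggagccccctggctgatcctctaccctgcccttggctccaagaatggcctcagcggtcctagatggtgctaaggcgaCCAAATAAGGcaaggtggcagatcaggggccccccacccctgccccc
Myh8: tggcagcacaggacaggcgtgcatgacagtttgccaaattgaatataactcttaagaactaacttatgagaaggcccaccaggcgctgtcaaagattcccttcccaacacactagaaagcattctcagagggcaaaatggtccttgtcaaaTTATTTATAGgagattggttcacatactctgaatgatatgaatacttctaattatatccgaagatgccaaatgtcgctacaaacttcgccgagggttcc
Ankrd1: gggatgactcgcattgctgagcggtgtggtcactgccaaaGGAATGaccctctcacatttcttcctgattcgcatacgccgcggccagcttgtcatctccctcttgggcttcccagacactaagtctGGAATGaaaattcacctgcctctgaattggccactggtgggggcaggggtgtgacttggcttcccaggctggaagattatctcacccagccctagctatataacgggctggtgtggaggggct

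Both strands of the same 250 bases were searched in 32851 RefSeq promoters, and all 10 genes had an entry. A CArG box was found in 1 of the 10 genes, Actc1, at -47 to -38 from the start, and in 1.47% of all promoters. A MEF2 box was found in Myh8, at -99 to -90, and in Myom3, and in 2.92% of all promoters. The MCAT letters CATTCC were found in Tnnt2, Tnnc1 and Ankrd1, and in 12.6% of all promoters. TATAAA was found in Myh3 and Myh8, and in 12.4% of all promoters; in Myh8 this match lies inside the MEF2 box. The E-box CANNTG, bound by MyoD-family factors, was found in 8 of the 10 genes and in 66.2% of all promoters. The palindromic glucocorticoid receptor core ACANNNTGT was found in 0 of the 10 and in 5.84% of all promoters. These are matches of letters and say nothing of binding, and the absence of a match covers only this window.

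The 2 developmental myosin heavy chains lie in the skeletal myosin cluster on chromosome 11, with the adult genes Myh2, Myh1 and Myh4 between them. Myh8 (chr11:67277124-67308634, plus strand) encodes perinatal myosin, which follows embryonic myosin in development. Its dexamethasone libraries ran from 8.98 through a median of 9.40 to 9.89 log2 CPM, and its saline libraries were 10.37, 10.48, 10.51 and 10.54 log2 CPM. The groups did not overlap, and the saline libraries lay close together. The log2 fold change was -0.997 ± 0.12 (SE), a 1.995-fold lower level (limma adjusted p = 1.22e-05), which ranked 14 among the 1427 genes of at least the abundance of Myl6b. Of the 50-base windows of its longest transcript, 21.4% also occur in other genes, chiefly Myh2, Myh1 and Myh4, so part of its reads could have been shared with these.

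Myh3 (chr11:67078273-67102291, plus strand) encodes embryonic myosin, the first heavy chain of developing and regenerating fibres. Its dexamethasone libraries ran from 10.13 through a median of 10.59 to 10.75 log2 CPM, and its saline libraries were 10.74, 10.66, 11.11 and 11.17 log2 CPM. Saline libraries 3 and 5 were higher than every dexamethasone library, whereas saline libraries 1 and 2 fell within the dexamethasone range. Its log2 fold change was -0.37 ± 0.11 (SE), or 1.29-fold lower (limma adjusted p = 0.0147). The call was lost without saline library 3 (-0.30, limma adjusted p = 0.0644), without saline library 5 (-0.29, limma adjusted p = 0.0590) and after quantile normalisation (-0.15, limma adjusted p = 0.356). Of its windows, 4.81% occur in other genes.

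The 2 heavy chains thus moved by unequal amounts. The log2 ratio of Myh3 to Myh8 averaged 1.07 ± 0.15 in dexamethasone libraries and 0.44 ± 0.21 in saline libraries (SD, n = 9 and 4), with no overlap. The ratio was 1.55-fold higher with dexamethasone (exact permutation p = 0.0028, the smallest possible; adjusted over 11 ratios, p = 0.0154). This ratio had been chosen with the fold changes of both genes known.

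Adult fast myosin was the bulk of heavy chain RNA. Per kilobase, Myh4, the fastest type, made up 77.9% of 6 heavy chains in dexamethasone muscle and 81.1% in saline muscle. Myh3 made up 4.42 ± 0.89% in dexamethasone muscle and 4.24 ± 1.49% in saline muscle (SD, n = 9 and 4). Its share was thus close in both groups and spread more widely than it differed. The share of Myh8 was 1.63 ± 0.38% in dexamethasone muscle and 2.34 ± 0.58% in saline muscle, with overlap. Myh1, another adult fast chain, took 11.8 ± 1.05% with dexamethasone and 8.44 ± 0.85% with saline, and its groups did not overlap. That is a change of share only. The level of Myh1 itself had a log2 fold change of 0.01 (limma adjusted p = 0.962), with overlap. Set against the summed adult fast chains Myh1, Myh2 and Myh4, the ratio of Myh3 differed by 0.10 on the log2 scale (exact permutation p = 0.685; adjusted p = 0.820). That of Myh8 differed by -0.53 (exact permutation p = 0.0448; adjusted p = 0.123).

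**Figure D2:**
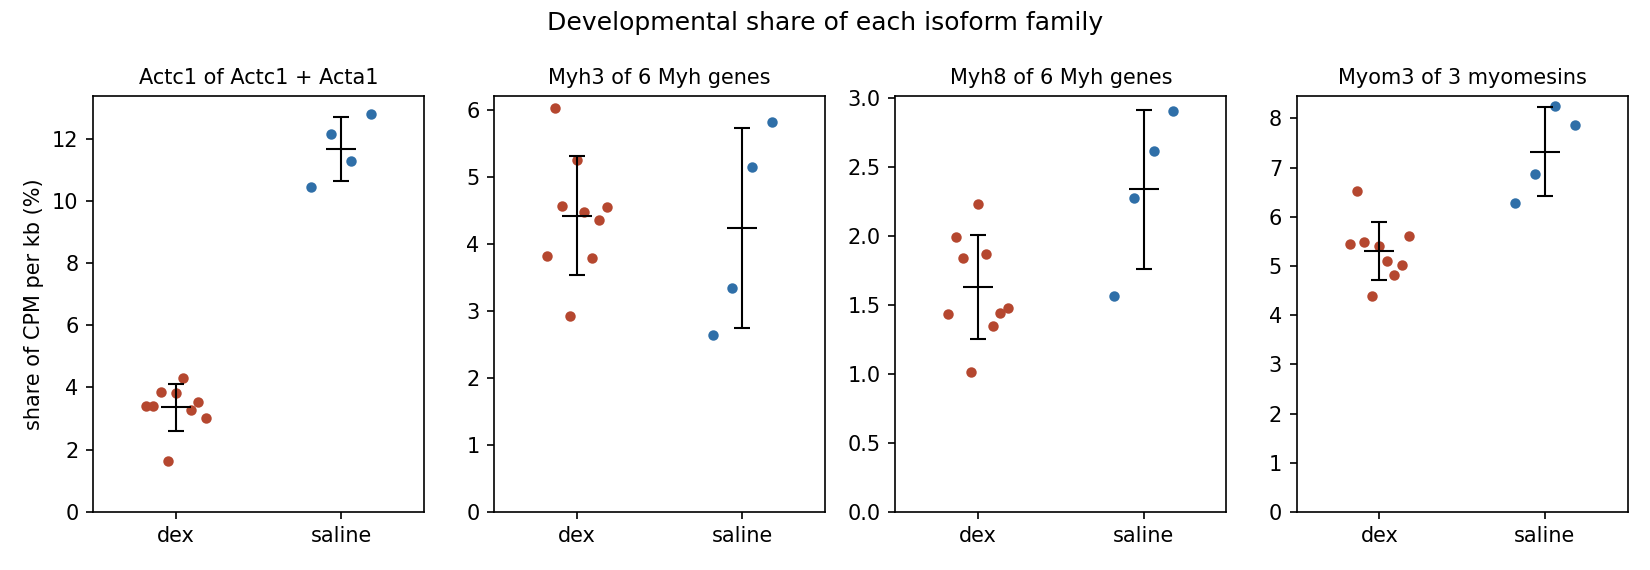
Shares of Actc1, Myh3, Myh8 and Myom3 in their isoform families (vertical axes, percent of CPM per kilobase of exon, from 0) in 9 dexamethasone and 4 saline libraries, with mean ± SD. The Actc1 share is at most 4.30% with dexamethasone and at least 10.4% with saline, while the shares of Myh3, Myh8 and Myom3 overlap between groups.

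Of the alkali light chains, which sit on the myosin neck, Myl4 is the isoform of embryonic muscle and adult atrium. Myl4 (chr11:104546017-104587215, plus strand) ran from 8.69 through a median of 9.15 to 9.38 log2 CPM in dexamethasone libraries and was 9.40, 9.59, 9.72 and 10.00 log2 CPM in saline libraries. The groups did not overlap, but the lowest saline library lay just above the highest dexamethasone library. The fitted log2 fold change was -0.56 ± 0.12 (SE), or 1.47-fold lower (limma adjusted p = 0.00104). Its locus holds 4 antisense or pseudogene annotations on the opposite strand, and whether reads were counted by strand is not given in the sources used here.

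Myl6b (chr10:128494157-128498685, minus strand) encodes another alkali light chain, found in slow and non-muscle cells. It ran from 6.27 through a median of 6.60 to 6.72 log2 CPM with dexamethasone and was 7.13, 7.25, 7.31 and 7.51 log2 CPM with saline. All dexamethasone libraries were lower than all saline libraries. The log2 fold change was -0.72 ± 0.08 (SE), or 1.64-fold lower (limma adjusted p = 4.14e-06). Their adult fast counterpart Myl1 also fell, by 0.83 on the log2 scale (limma adjusted p = 0.000135). The ratio of Myl4 to Myl1 differed by 0.28 (exact permutation p = 0.143; adjusted p = 0.262) and that of Myl6b to Myl1 by 0.12 (exact permutation p = 0.406; adjusted p = 0.558). The share of Myl4 among 4 alkali light chains was 11.7 ± 1.56% with dexamethasone and 10.0 ± 2.38% with saline (SD, n = 9 and 4), with overlap.

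The troponin complex makes contraction depend on calcium. Tnni1 (chr1:135783033-135810989, plus strand), the slow inhibitory subunit, is also the isoform of fetal muscle. It ran from 8.27 through a median of 8.66 to 8.83 log2 CPM with dexamethasone and was 8.86, 8.97, 9.21 and 9.33 log2 CPM with saline. The groups did not overlap, by a narrow margin. Its log2 fold change was -0.43 ± 0.10 (SE), or 1.35-fold lower (limma adjusted p = 0.00171). The adult fast isoform Tnni2 fell by 0.38 (limma adjusted p = 0.0298), and the ratio of Tnni1 to Tnni2 differed by -0.06 (exact permutation p = 0.792; adjusted p = 0.820).

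Tnnt2 (chr1:135836315-135852268, plus strand), near Tnni1 on chromosome 1, encodes the cardiac tropomyosin-binding subunit, which embryonic skeletal muscle also makes. It ran from 7.82 through a median of 8.13 to 8.30 log2 CPM with dexamethasone and was 7.89, 7.95, 8.42 and 8.71 log2 CPM with saline. The groups overlapped, with saline libraries 3 and 5 above all dexamethasone libraries and saline libraries 1 and 2 inside their range. The fitted log2 fold change was -0.14, with a 95% interval of -0.41 to 0.12 (limma adjusted p = 0.365), and 0.01 without saline library 5. The adult fast isoform Tnnt3 had -0.39 (limma adjusted p = 0.0626), and passed without the intensity trend, with robust priors and with voom. The adult slow isoform Tnnt1 fell by 0.69 (limma adjusted p = 5.22e-05).

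Tnnc1 (chr14:31208312-31211729, plus strand) encodes the calcium-binding subunit of heart and slow fibres. It ran from 7.21 through a median of 7.63 to 7.79 log2 CPM with dexamethasone and was 7.74, 7.33, 8.19 and 8.06 log2 CPM with saline. The groups overlapped, and saline library 2 was near the bottom of both. The log2 fold change was -0.21, with a 95% interval of -0.48 to 0.07 (limma adjusted p = 0.205). Without saline library 2 it was -0.37 and passed (limma adjusted p = 0.0148). The fast isoform Tnnc2 fell by 0.71 (limma adjusted p = 0.000489). The ratio of Tnnc1 to Tnnc2 was 1.42-fold higher with dexamethasone, which did not pass (exact permutation p = 0.0727; adjusted p = 0.160). Nisch lies on the opposite strand across Tnnc1.

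Myom3 (chr4:135758800-135815571, plus strand) encodes a myomesin, which links thick filaments at the M-band. It ran from 7.09 through a median of 7.20 to 7.34 log2 CPM with dexamethasone and was 7.98, 7.88, 8.0 and 7.81 log2 CPM with saline. The groups were tight and well separated. Its log2 fold change was -0.72 ± 0.05 (SE), or 1.65-fold lower, with the smallest adjusted p of the 10 (limma, 1.27e-07). Of the other myomesins, Myom2 fell by 0.34 (limma adjusted p = 0.0140), while Myom1 had -0.07 (limma adjusted p = 0.629). The ratio of Myom3 to Myom2 was 1.30-fold lower with dexamethasone, with overlap (exact permutation p = 0.0084; adjusted p = 0.0308). Without any 1 of the saline libraries that ratio no longer passed, with a difference of -0.44 to -0.31.

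Ankrd1 (chr19:36111965-36119844, minus strand) encodes cardiac ankyrin repeat protein, which binds titin in the I-band, enters the nucleus and is known to rise in stretched or damaged muscle. It was the 1 gene of the 10 that rose. It ran from 6.73 through a median of 7.09 to 7.72 log2 CPM with dexamethasone and was 6.53, 6.30, 6.55 and 6.57 log2 CPM with saline. All dexamethasone libraries were higher, with library 4 well above the rest. The fitted log2 fold change was 0.54 ± 0.14 (SE), or 1.46-fold higher (limma adjusted p = 0.00522). Without dexamethasone library 4 it was 0.46 (limma adjusted p = 0.00113). With the mean of 31 adult sarcomere genes, which itself separates the groups, as a covariate it was 0.55 and no longer passed (limma adjusted p = 0.0770).

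The related gene Ankrd2 rose by 0.60 on the log2 scale (limma adjusted p = 0.0295), and Ankrd23 had 0.32 (limma adjusted p = 0.0937). The ratio of Ankrd1 to Ankrd2 differed by -0.05 (exact permutation p = 0.820; adjusted p = 0.820). Ankrd1 is also a known target of YAP and TEAD, the transcriptional pair at the end of the Hippo pathway. Of 11 listed genes of this pathway and of the titin-binding ankyrin repeat family, 8 were higher and 0 lower by limma, by voom and at an unadjusted p under 0.05, beside 25.2% of all genes higher by limma, with a median log2 fold change of 0.49. Ccn2, a matricellular growth factor and YAP target, rose by 1.68 (limma adjusted p = 2.28e-07), and the related Ccn1 rose by 1.23 (limma adjusted p = 4.94e-05). Amotl2, an angiomotin that binds YAP, rose by 0.87 (limma adjusted p = 3.37e-07). Wwtr1, which encodes the YAP relative TAZ, rose by 0.49 (limma adjusted p = 2.16e-05). Yap1 and Tead1 did not pass (limma adjusted p = 0.469 and 0.906), and were named after their values were seen.

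**Figure D3:**
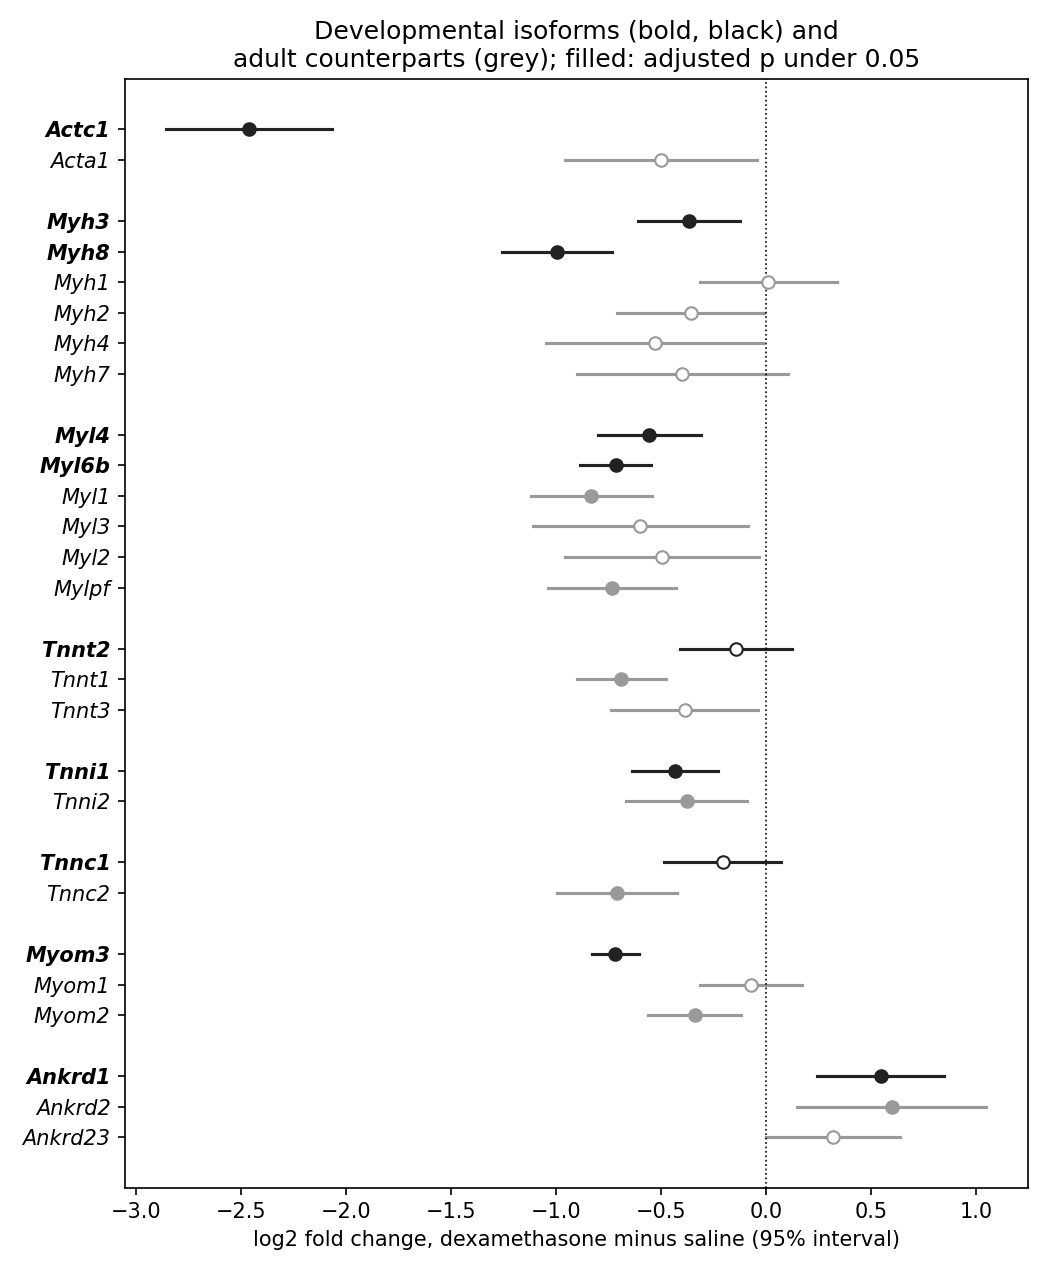
Log2 fold changes, dexamethasone minus saline (horizontal axis), with 95% intervals, for the 10 developmental genes (black) and 17 adult counterparts (grey), grouped by family. Filled points passed at an adjusted p under 0.05; Actc1 lies furthest left, at -2.46, and Ankrd1 lies to the right of 0.

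Of 31 listed adult sarcomere genes, 12 were lower and 0 higher (limma), beside 22.9% of all genes lower and 31.8% of those at or above the abundance of Myl6b, with a median log2 fold change of -0.39. At an unadjusted p under 0.05 the counts were 18 and 0, by voom 15 and 0, and after quantile normalisation 11 and 2. The mean of this list lay between 10.58 and 10.998 log2 CPM in dexamethasone libraries and between 11.01 and 11.50 in saline libraries, without overlap. Tpm2, beta-tropomyosin, fell by 0.91 (limma adjusted p = 1.08e-05), Actn2, a Z-disc alpha-actinin, by 0.72 (limma adjusted p = 2.02e-06) and Mylpf, the fast regulatory light chain, by 0.73 (limma adjusted p = 0.000626). Of the slow-fibre counterparts, Tnnt1 passed as given above, while Myh7 had -0.40 (limma adjusted p = 0.177), Myl2 -0.50 (limma adjusted p = 0.0701) and Myl3 -0.60 (limma adjusted p = 0.0508). Fast Myh4 had -0.53 (limma adjusted p = 0.0837, and 0.0493 without saline library 5). Myh4 also passed without the intensity trend, with robust priors and with voom. Myh2 had -0.36 (limma adjusted p = 0.0837). The part of fibre content in the changes of the 10 genes was not tested. With this mean as a covariate 7 of the 10 were lower, but since it separates the groups without overlap, it cannot be told apart from the treatment.

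In the ratio tests as a whole, 3 of 11 passed after adjustment, those of Actc1 to Acta1, Myh3 to Myh8 and Myom3 to Myom2. The other 8 did not. The ratio of Tnnt2 to Tnnt3 differed by 0.25 (exact permutation p = 0.310; adjusted p = 0.488).

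**Figure D4:**
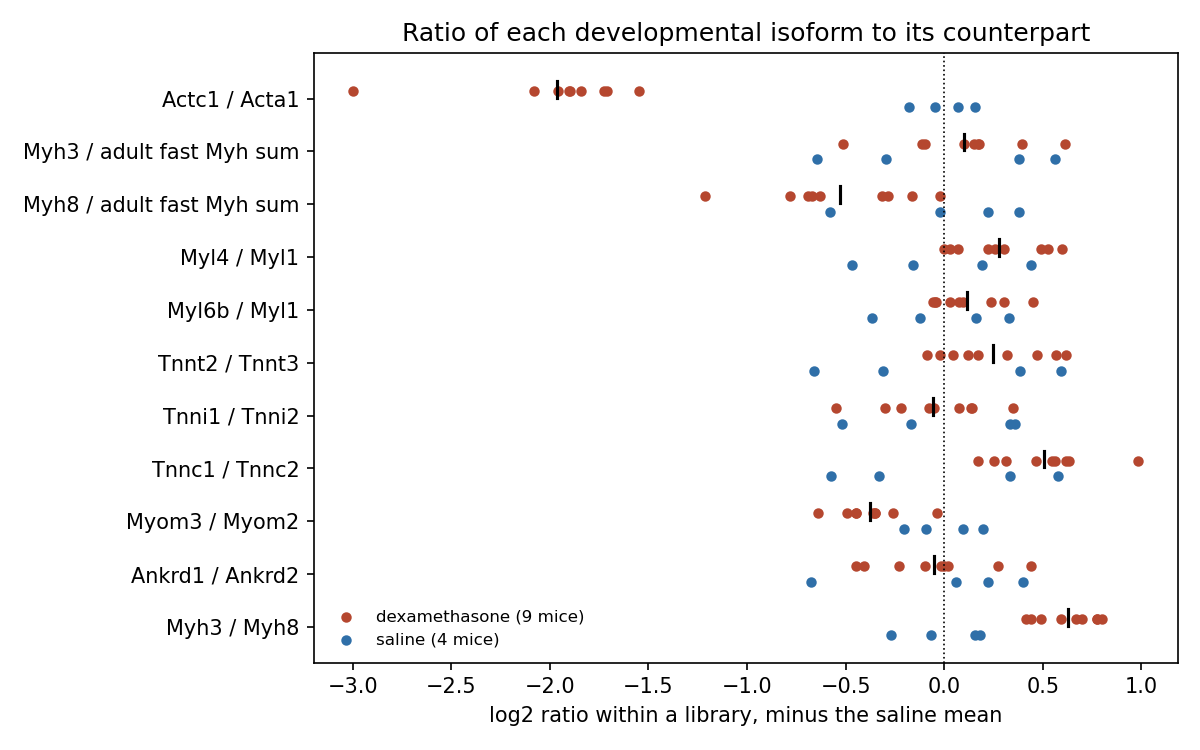
Log2 ratio of each developmental gene to its counterpart, and of Myh3 to Myh8, within each library, relative to the saline mean (horizontal axis), for 11 ratios in rows. Red points are 9 dexamethasone libraries, with their mean as a black tick, and blue points are 4 saline libraries; Actc1 to Acta1 lies furthest left, 1.96 below the saline mean.

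Of 19 measured other genes of the fetal muscle program, 3 were lower and 6 higher, in all a share close to the 48.1% of all genes, with a median log2 fold change of -0.05. Igf2, a fetal growth factor, fell by 1.157 (limma adjusted p = 6.28e-07), and Dlk1, an imprinted Notch-related ligand, fell by 1.29 (limma adjusted p = 8.99e-05). Nes, the intermediate filament nestin of young myofibres, rose by 0.65 (limma adjusted p = 0.000276), and Cdh15, the M-cadherin of satellite cells, rose by 0.48 (limma adjusted p = 0.000144). Of 27 myogenic factors and cofactors, 9 were lower and 4 higher, in all a share like the 48.1% of all genes, with a median log2 fold change of -0.01; the lower count was 3 without saline library 1 and 4 without saline library 3, and the higher count was 2 without saline library 2. Myf6, a myogenic factor of maturing fibres, fell by 0.73 (limma adjusted p = 0.00104), and Vgll3, a TEAD cofactor, rose by 1.11 (limma adjusted p = 1.78e-07). Vgll2, a TEAD cofactor, fell by 0.34 (limma adjusted p = 0.000620), and Tbx15, a T-box factor of fast fibres, fell by 0.54 (limma adjusted p = 0.00203).

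In none of the lists of markers of other cells was the share that passed above the 48.1% of all genes. Of 12 macrophage markers, 1 was lower and 4 were higher, and their summed level was 2563 to 3403 CPM with dexamethasone and 2148 to 3143 CPM with saline. Of 10 fibro-adipogenic progenitor markers, 2 were lower and 0 higher by limma and by voom, and 3 and 1 at an unadjusted p under 0.05. Of 10 measured bone and cartilage markers, 2 were lower and 2 higher, and their summed level was 412 to 1015 CPM with dexamethasone and 122 to 481 CPM with saline. In saline library 3 the mean of these markers was 3.34 log2 CPM, above every other library of either group. It was 0.82 to 1.31 in the other saline libraries and 1.24 to 1.94 in the dexamethasone libraries. Its group average was 1.45 ± 0.26 with dexamethasone and 1.69 ± 1.12 with saline (SD), whereas the summed level ranged higher with dexamethasone. The cause of the high value in saline library 3 was not tested. Neutrophil markers summed to 31.2 to 61.9 CPM with dexamethasone and 30.9 to 347 CPM with saline, with library 3 highest in saline. Smooth muscle (8 measured), endothelial (8) and Schwann cell (8) markers each had 1 lower and 1 higher gene. Their part in the changes of the 10 genes was not tested.

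Apart from the cut-off at the abundance of Myl6b, levels were compared between genes only per kilobase of exon. With dexamethasone, Actc1 (9.18 log2 CPM per kilobase) and Myl4 (8.85) led, and their ranges overlapped. With saline, Actc1 stood alone at 11.64 log2 CPM per kilobase, above the range of Myl4 at 9.41. Tnni1, Tnnc1, Myh3 and Tnnt2 followed in both groups, each overlapping the next in the order of its group. Myl6b (6.54 with dexamethasone, 7.26 with saline), Myh8 (6.50 and 7.50) and Ankrd1 (6.02 and 5.47) lay below these. Myom3 was lowest, at 4.72 with dexamethasone, where its range lay apart, and 5.44 with saline, where it overlapped that of Ankrd1.

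Among themselves, the genes differed in how they varied between mice of a group. Correlations were taken across 13 libraries, with each gene centred on its group mean. Myl4 and Myl6b were each other's nearest among the genes searched (Pearson r = 0.97, and 0.96 in 12 libraries without dexamethasone library 4). Myl4 also varied with Tnni1 (0.93, and 0.88 without that library) and Tnnt2 (0.90, and 0.93 without it). Actc1 varied with Myh8 in 13 libraries (0.70), but 0.28 remained without library 4. Ankrd1 and Actc1 had -0.63 in 13 libraries and 0.18 without library 4. These are descriptions, since points share a library, its scaling and its muscle.

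By the same measure the genes most like Actc1 were Smad6, an inhibitory Smad (r = 0.94, and 0.86 without library 4), Zhx2 (0.93, and 0.77) and Cyb5r2 (0.91, and 0.72). Those most like Myh3 were Pmaip1 (0.97), Prdm1 (0.96) and Col8a2 (0.95), and those most like Myh8 were Zfp319 (0.89), Rabep2 (0.89) and Phf1 (0.88). For Tnni1 they were Pnmal2 (0.98), Fgfr4 (0.96) and Sytl2 (0.96). For Tnnt2 they were Pkig (0.97), Bex1 (0.96) and Hes6 (0.96), and for Tnnc1 Kif14 (0.94), Prdm1 (0.91) and Vamp4 (0.91). For Myom3 they were Ppm1k (0.89), Lzts1 (0.87) and Ubqln4 (0.85). For Ankrd1 they were Ubxn4 (0.94), Dnajc2 (0.93) and Trim63, a muscle ubiquitin ligase (0.91, and 0.75 without library 4). Each r is among the highest over all genes searched, and the centring removes the difference between groups. Nearness thus says nothing of the change with dexamethasone. Of the genes most like Actc1, Smad6 rose by 0.37 (limma adjusted p = 0.0128), whereas Zhx2 fell by 0.64 and Cyb5r2 by 0.40 (limma adjusted p = 3.72e-05 and 0.0182).

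Dexamethasone library 4 was the lowest of its group for 8 of the 10 genes and the highest for Ankrd1, while its adult sarcomere mean of 10.86 log2 CPM lay inside the range of its group. Dexamethasone library 5 was highest for 5 genes. In saline, library 5 was highest for 7 genes and library 1 lowest for 5, while the adult sarcomere mean was highest in library 1, at 11.50, and lowest in library 5, at 11.01.

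**Figure D5:**
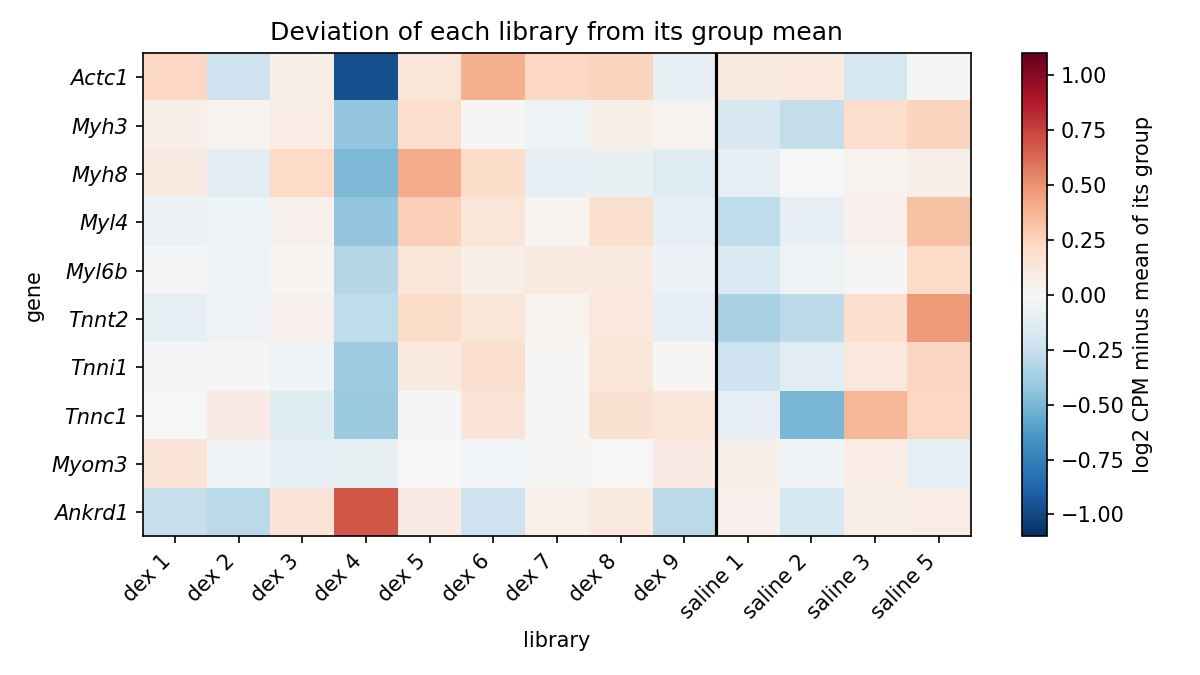
Deviation of each library from the mean of its own group (colour, log2 CPM) for the 10 genes (rows) in 9 dexamethasone libraries (left of the line) and 4 saline libraries (right of it). Dexamethasone library 4 is blue for most genes and red for Ankrd1, and saline library 5 is red for most genes.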

How the data were processed

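Polyadenylated RNA of 13 injured hamstrings, 1 per mouse, was made into stranded libraries, per the labels' protocols. Reads were counted with featureCounts 2.0.1 on mm10 and handled with limma 3.50.1, per the submitters' processing notes. The aligner, filters on low genes and the use of strand in counting were not given in the sources used here. Per mouse, log2 CPM was deposited, beside a comparison by the authors with its log2 fold changes and p-values. The main table (14911 genes) had been normalised without the excluded mouse and the other (14970) with it; 1 sample column was not used. In the deposited log2 values a gene's reads, with 0.5 added, are divided by an effective library size. Whole reads came out in 100% of values within 0.01, and voom on them called 7067 genes.

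Groups were compared with limma 3.58.1 (R 4.3.3; empirical Bayes with an intensity trend, two-sided, Benjamini-Hochberg at 0.05 over all genes). Ratios of 2 genes within a library were compared by an exact permutation test over 715 splits (scipy 1.17.1), adjusted over 11 ratios. Per-kilobase levels used the union of GENCODE M21 basic exons. Coordinates came from RefSeq for 14909 genes. Named genes were the 10, their 17 adult counterparts, up to 4 per list by smallest adjusted p among genes averaging 0 log2 CPM or more, and the 3 nearest by correlation with a mean of at least 1. Others are said to be outside this rule. The correlation search left out predicted genes, Riken clones and pseudogenes. The 10 genes, the lists and the ratios were chosen with earlier results of these data known. Permutation p-values rest on the spread between these mice, and limma p-values also on a variance trend over genes of similar abundance. The limma fit was tested on simulated data in which far fewer genes changed than passed here. It recovered 96 of 100 genes changed by 1 log2 unit and 80 of 100 changed by 0.5, with 11 false among 187 calls. Alternatives covered the table used, the offset (CPM plus 1), removal of low genes, scaling by medians or by quantiles, the moderation of variances, library weights, voom, the mouse number as a block, the adult sarcomere mean as a covariate, and leaving out single libraries. Correlations without dexamethasone library 4 and lengths of the longest coding transcript were added after seeing the data. Figures used matplotlib 3.10.9.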

Additional observations from a re-analysis of the deposited data

Results flagged for a closer look

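Of 42 groups of values checked, 7 held a library far from the others of its group. Chance would give about 1 in 20 if the groups were independent, but they share the same 13 libraries. Of the 7, 6 came from dexamethasone library 4. Actc1 was 8.77 log2 CPM there, against 9.51 to 10.13 in the other dexamethasone libraries. Myh3 was 10.13 (others 10.50 to 10.75), Myl6b 6.27 (others 6.52 to 6.72) and Tnni1 8.27 log2 CPM (others 8.60 to 8.83). In the same library Ankrd1 was 7.72 log2 CPM, above the others at 6.73 to 7.17, and the log2 ratio of Actc1 to Acta1 was -5.90, below the others at -4.98 to -4.45. In saline library 2, Ankrd1 was 6.30 log2 CPM, below the other saline libraries at 6.53 to 6.57. The cause of these values was not tested.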

How the results depend on the processing

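Across 25 alternatives, Actc1, Myh8, Myl4, Myl6b, Tnni1 and Myom3 stayed lower and past the threshold, with Actc1 between -2.53 and -2.18. With the adult sarcomere mean as a covariate, which differed between the groups without overlap, 3812 genes were called in all, 0 of the 10 were called higher (Ankrd1 0.55, limma adjusted p = 0.0770; 1 at an unadjusted p under 0.05) and Tnni2 (0.038), Myom1 (0.33) and Myom2 (0.011) changed sign; these 3 are themselves in the mean that is the covariate, so the values of its members lie around 0 by construction. Leaving out 1 library at a time gave 6306 to 7173 genes called, 6 to 8 of the 10 lower and 1 higher. The log2 ratio differences then ran from -2.02 to -1.83 for Actc1 to Acta1, from 0.54 to 0.69 for Myh3 to Myh8 and from -0.44 to -0.31 for Myom3 to Myom2. Without any 1 saline library the smallest possible p is 0.00909, so the first 2 ratios had an adjusted p of 0.05 by the smaller design, and the Myom3 ratio did not pass either. Acta1, Myh4 and Tnnt3 passed without the intensity trend, with robust priors, with voom and with the filter on low genes (limma adjusted p = 0.00178, 0.0111 and 0.0181 without the trend). With the longest transcript as length, the Myh8 share was 2.07% with dexamethasone and 2.97% with saline, and Myl4 (9.20) stood above Actc1 (9.18 log2 CPM per kilobase) with dexamethasone.

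The mouse numbers gave correlations of -0.01, -0.07, -0.03 and 0.12 between same-numbered libraries. Differently numbered libraries were not set beside them, so these values cannot decide whether the numbers pair the mice. With the number as a replicate block in 8 libraries, 5959 genes were called, 6 of the 10 lower (Myh3 -0.28, limma adjusted p = 0.0923) and 1 higher; without the number as a term, 6124 were called. In the block, the log2 ratio differences were -1.81 for Actc1 to Acta1 and 0.57 for Myh3 to Myh8, where the smallest possible p is 0.125.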
